A study of Homo sapiens with 11 samples.

Results

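Transcripts of 9 chemoattractant receptor genes were followed in MOLM-13 cells after inhibition of Menin, alone or with inhibition of the immunoproteasome subunit PSMB8. The members were taken by gene symbol from the table of counts, and all 9 of them were found among its 38557 annotated genes. They are the chemokine receptors CXCR4, CXCR2, CCR1, CCR2 and CX3CR1, the complement receptors C5AR1 and C3AR1, and the formyl peptide receptors FPR1 and FPR2. MOLM-13 is an established human acute myeloid leukemia cell line of monocytic type with a rearranged KMT2A gene, and all results come from this 1 line. All cells were exposed for 72 h, in 4 libraries to the solvent DMSO, in 4 to MI-503 at 1 µM, and in 3 to MI-503 at 1 µM plus PR-957 at 100 nM. MI-503 blocks the binding of Menin to KMT2A, and PR-957 (ONX-0914) inhibits PSMB8. The last group, which holds replicates 1, 2 and 4, is called the combination. No library received PR-957 alone, so PR-957 could be compared only on top of MI-503.

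Chemoattractant receptors are G protein-coupled receptors at the cell surface that let leukocytes sense a gradient of a soluble attractant and move along it. Most of them signal through Gi proteins, whose released subunits activate phospholipase C beta and phosphoinositide 3-kinase gamma and, further on, the small GTPases that drive the cytoskeleton. In the myeloid lineage CXCR4 retains cells in the bone marrow, CCR2 lets monocytes leave it, and CX3CR1 marks patrolling monocytes and tissue macrophages. CXCR2, C5AR1 and FPR1 are best known from neutrophils and monocytes that are called to sites of infection.

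The promoters of the 4 members whose results differ most clearly from each other are shown first. Each window holds 250 bases before and 50 bases after a transcription start, is written on the strand of the gene, and comes from RefSeq on GRCh38.p14. All 14 windows that RefSeq gave for the 9 members were equal to the hg38 sequence. Capitals mark CG dinucleotides. CCR2 lies at chr3:46353861-46354160 (plus strand), CX3CR1 at chr3:39281686-39281985 (minus strand, the first of 3 starts), C3AR1 at chr12:8066310-8066609 (minus strand) and CXCR4 at chr2:136118100-136118399 (minus strand, the first of 3 starts).
CCR2: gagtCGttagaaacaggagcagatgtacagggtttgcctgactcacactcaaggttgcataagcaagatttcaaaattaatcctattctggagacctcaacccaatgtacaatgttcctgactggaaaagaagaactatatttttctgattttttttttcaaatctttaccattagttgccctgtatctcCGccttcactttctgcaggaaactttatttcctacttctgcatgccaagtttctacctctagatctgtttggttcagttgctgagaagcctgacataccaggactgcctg
CX3CR1: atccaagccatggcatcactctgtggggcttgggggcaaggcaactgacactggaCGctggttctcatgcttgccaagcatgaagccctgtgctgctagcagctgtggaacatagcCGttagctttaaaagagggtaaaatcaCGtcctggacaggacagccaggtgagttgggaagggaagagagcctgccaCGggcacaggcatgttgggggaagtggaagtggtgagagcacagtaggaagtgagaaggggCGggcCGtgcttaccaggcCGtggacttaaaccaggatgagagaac
C3AR1: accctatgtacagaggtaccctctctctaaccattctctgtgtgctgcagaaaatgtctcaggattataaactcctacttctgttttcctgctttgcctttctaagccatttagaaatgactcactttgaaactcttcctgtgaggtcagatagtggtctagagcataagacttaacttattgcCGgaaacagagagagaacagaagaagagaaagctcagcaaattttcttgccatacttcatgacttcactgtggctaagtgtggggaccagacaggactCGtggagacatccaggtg
CXCR4: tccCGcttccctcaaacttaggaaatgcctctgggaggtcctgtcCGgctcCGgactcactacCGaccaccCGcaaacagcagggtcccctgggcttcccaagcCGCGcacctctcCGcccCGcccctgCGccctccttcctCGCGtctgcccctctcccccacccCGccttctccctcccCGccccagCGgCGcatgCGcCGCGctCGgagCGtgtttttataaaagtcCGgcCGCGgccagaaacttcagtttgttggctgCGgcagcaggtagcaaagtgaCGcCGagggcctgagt

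These windows differ in CG content. The CXCR4 window holds 27 CG dinucleotides, that of CX3CR1 holds 7, and those of CCR2 and C3AR1 hold 2 each, where the median over all 35116 promoters of the same length was 14 (quartiles 4 and 28). The later starts of CXCR4 have 14 and 9, and those of CX3CR1 have 3 and 1, so the CG content of both genes depends on the start. FPR1 has no CG in its window, CCR1 has 3, CXCR2 has 7, C5AR1 has 10, and the windows of FPR2 have 4 and 5. The letters GAGGAA (the core recognized by the myeloid factor PU.1), searched on both strands, occur in 27.9% of all promoters. Among the windows printed they occur in that of CXCR4, on the opposite strand at bases -113 to -108 from the start. Among the windows not printed they occur at the last of the 3 starts of CXCR4 (-24 to -19, opposite strand). They also occur at the last of the 3 starts of CX3CR1 (-190 to -185, given strand), and in the C5AR1 window (-201 to -196 and -56 to -51, opposite strand). The letters TTGCNNAA (recognized by C/EBP factors), searched on both strands, occur in 10.5% of all promoters. Among the 9 members they occur in CCR2 alone, as TTGCATAA at bases -196 to -189. A match describes the letters and is not evidence of a bound factor.

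The libraries held 18.9 to 41.2 M counted fragments, and 14683 genes were tested. Levels are given as CPM, the count relative to the TMM-scaled library total in M fragments, and as FPKM, the CPM per kb of exon, wherever genes are compared with each other. Adjusted p-values are those of edgeR's quasi-likelihood test after Benjamini-Hochberg adjustment over all tested genes, with 0.05 as the limit for a call. SE is the standard error of a log2 fold change, derived as its size over the square root of the test's F statistic. The intervals of the fold changes were built from this SE. The labels do not say that replicates came from separate cultures, so the p-values measure the spread between these samples, which may be technical. Combination replicate 1 stood apart from its group. Its counts differed from those of replicates 2 and 4 with a chi-square over degrees of freedom of 17.7 and 30.2, where replicates 2 and 4 differed from each other with 4.27 and pairs within the other groups with 1.67 to 5.53. Values of the members in the combination, and counts over the gene lists, are therefore also given without this library. Markers of a myeloid leukemia line were abundant, with CD33, SPI1, CEBPA, MPO, FLT3, PTPRC and ANPEP summing to 1570 to 2020 CPM in every library, while 5 T cell markers summed to 0.276 CPM or less and 4 erythroid markers to 0.1 CPM or less.

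**Figure D1:**
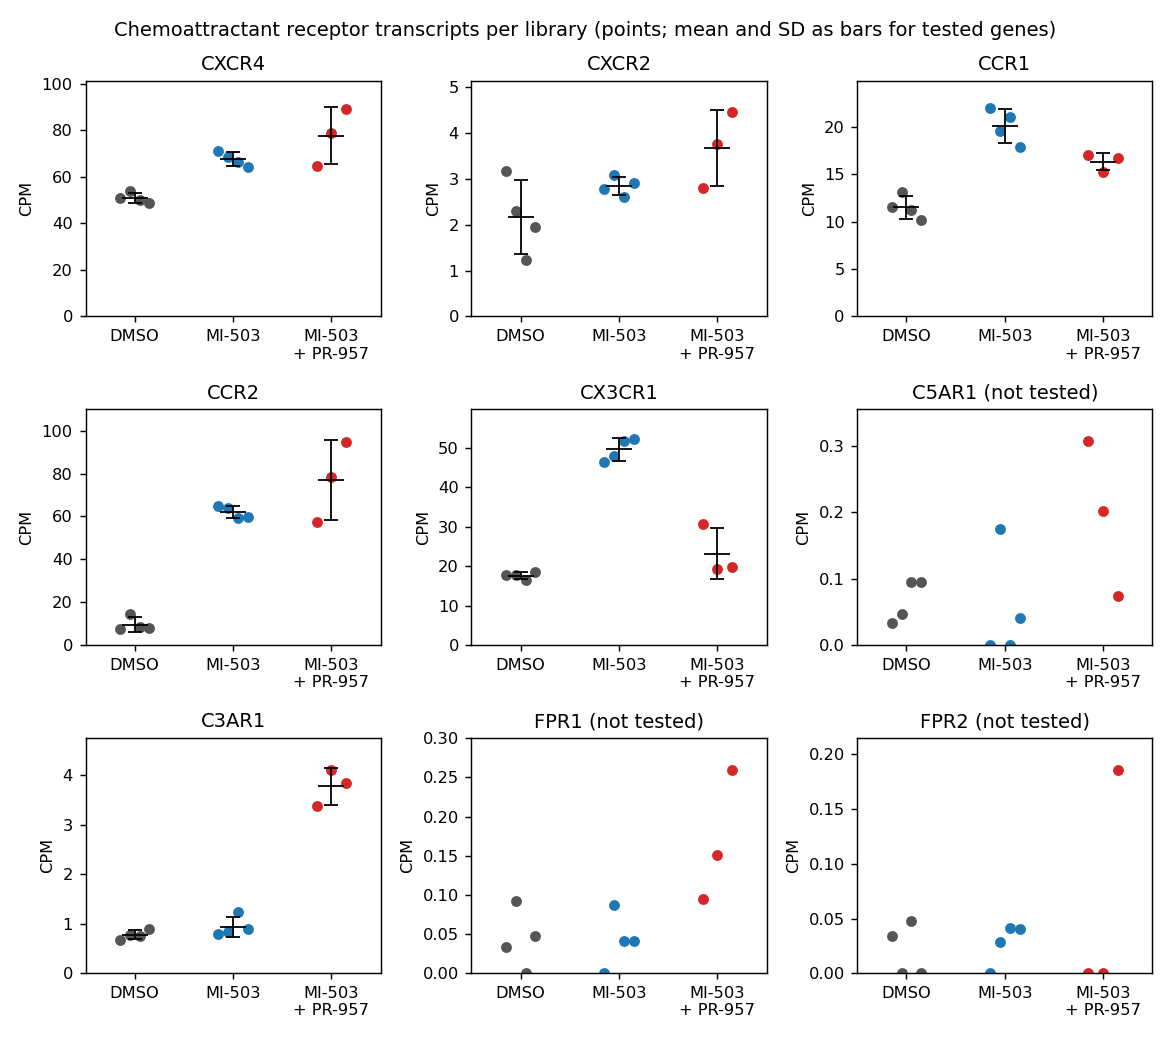
Transcript level (CPM, linear axes from 0) of the 9 receptor genes in each library of the 3 groups, with the group mean and SD drawn for the 6 tested genes. CCR2 and CX3CR1 were higher in all 4 MI-503 libraries than in all 4 DMSO libraries, C3AR1 stood above both other groups in the 3 combination libraries, and C5AR1, FPR1 and FPR2 stayed below 0.4 CPM.

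Among the members, 6 were abundant enough to be tested (CXCR4, CXCR2, CCR1, CCR2, CX3CR1 and C3AR1), and C5AR1, FPR1 and FPR2 were not. With MI-503 alone 4 of the 6 were called higher than in DMSO (CCR2, CX3CR1, CCR1 and CXCR4), where 22% of all tested genes were called higher and 51.4% were called in either direction. No member was called lower, where 29.3% of all tested genes were (with upper-quartile scaling these shares were 27% higher and 22.9% lower), and none fell at an unadjusted p under 0.05 or by DESeq2 or limma-voom. With the combination all 6 tested members were called higher than in DMSO, beside 31.7% of all tested genes (64.5% in either direction). None was called lower, beside 32.8% of all tested genes, and none fell at an unadjusted p under 0.05 or by the other tools. Both of these comparisons use the same 4 DMSO libraries. Between the combination and MI-503 the members split, with C3AR1 and CXCR4 called higher (23.6% of all tested genes) and CX3CR1 and CCR1 called lower (23.8%), and 47.4% of all tested genes called in either direction. Libraries did not overlap for the 4 members called higher with MI-503 (21.2% of all tested genes did not overlap and were higher, and 29.1% did not overlap and were lower). With the combination 5 members were above all DMSO libraries (29.3% of all tested genes, and 31.2% were below), all but CXCR2. Against MI-503 C3AR1 alone was above every MI-503 library (23.8%), and CX3CR1 and CCR1 were below (23.7%). Without combination replicate 1, 6 members were called higher than in DMSO, and 4 were called higher and 2 lower than with MI-503. The shares over all genes given here are from fits of all 11 libraries, so they are not the background of these counts. Over all genes, 9353 were called in either direction between the combination and DMSO without this library, and 9472 with it. The median log2 fold change of the 6 tested members was 0.60 for MI-503 against DMSO, 0.66 for the combination against DMSO and 0.25 for the combination against MI-503, beside -0.03, 0.01 and 0.00 over all tested genes (0.03, 0.08 and 0.01 with upper-quartile scaling).

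**Figure D2:**
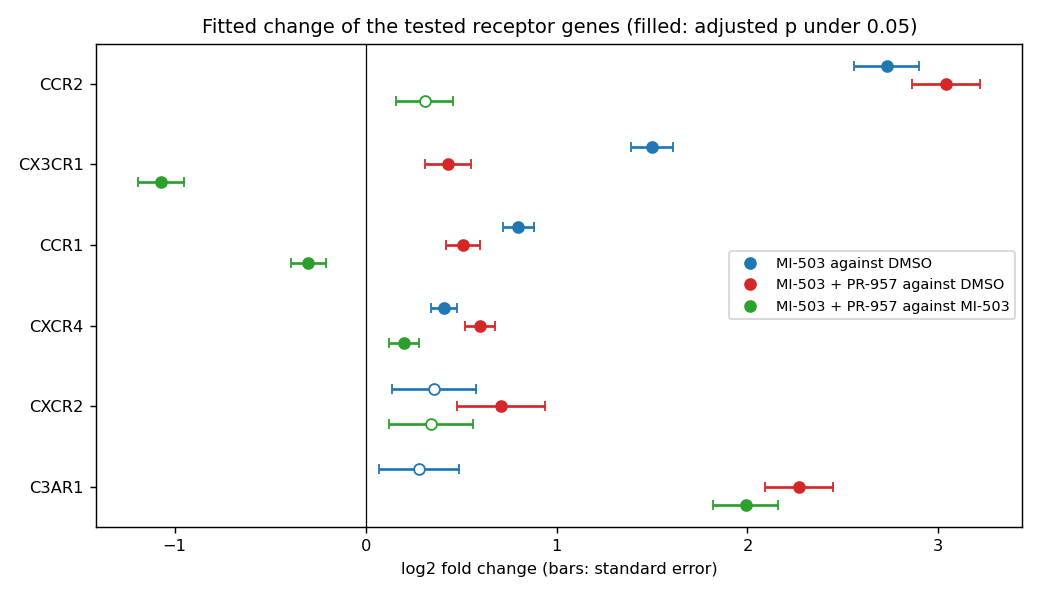
Fitted log2 fold change with its standard error for the 6 tested receptor genes in the 3 comparisons, with filled points for an adjusted p under 0.05. CCR2 reached 2.73 with MI-503 and 3.04 with the combination, CX3CR1 was lower in the combination than with MI-503 by 1.07, and C3AR1 moved past the threshold only in the 2 comparisons that hold the combination.

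CCR2 is the receptor for CCL2, through which classical monocytes leave the bone marrow and enter inflamed tissue (chr3:46353744-46360940, plus strand, hg38). It stood at 7.29, 14.5, 8.21 and 7.69 CPM in DMSO replicates 1 to 4, at 64.8, 63.8, 59.1 and 59.9 CPM with MI-503, and at 57.6, 78.6 and 94.6 CPM in combination replicates 1, 2 and 4. All treated libraries were above all DMSO libraries, and the MI-503 and combination libraries overlapped. CCR2 rose 6.63-fold with MI-503 (95% interval 5.15 to 8.54, log2 2.73, SE 0.17, adjusted p = 1.86e-09), the rise of rank 36 among the 14683 tested genes, where 4.22% were called with a rise of at least 2-fold. Against DMSO it rose 8.2-fold with the combination (interval 6.32 to 10.6, log2 3.04, adjusted p = 2.19e-10), and the log2 fold change was 3.24 without combination replicate 1. DMSO replicate 2 held the highest control level, and without it the log2 fold changes were 3.01 and 3.31. The combination and MI-503 were not told apart for CCR2 by the test, with a ratio of 1.24 (interval 0.991 to 1.54, adjusted p = 0.108). That comparison turned on single libraries and settings, since the log2 fold change of 0.31 became 0.46 without combination replicate 1 (adjusted p = 0.00104), and the adjusted p ran from 2.29e-06 to 0.659 over 19 alternatives.

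CX3CR1, the receptor for the membrane-bound chemokine fractalkine (chr3:39263494-39281735, minus strand), followed a different course. It stood at 17.7, 17.7, 16.4 and 18.4 CPM in DMSO, at 46.4, 48, 51.8 and 52.3 CPM with MI-503, and at 30.6, 19.3 and 19.7 CPM in the combination. The 3 groups did not overlap. The rise with MI-503 was 2.82-fold (interval 2.4 to 3.32, adjusted p = 1.24e-08). In the combination CX3CR1 was at 0.476 times its MI-503 level (interval 0.402 to 0.564, log2 -1.07, SE 0.12, adjusted p = 1.31e-06), and it was called lower under all 19 alternatives, with log2 values from -1.37 to -0.99. It remained above DMSO in the combination, 1.34-fold (adjusted p = 0.00562), but much of that difference came with replicate 1: the log2 fold change was 0.43 with it and 0.17 without it (adjusted p = 0.0446).

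The pair therefore changed order. Per kb of exon CCR2 stood below CX3CR1 in DMSO, at 0.377, 0.749, 0.458 and 0.382 times its level in replicates 1 to 4. With MI-503 the ratio was 1.28, 1.22, 1.05 and 1.05, and in the combination it was 1.73, 3.73 and 4.39. The 3 groups did not overlap in this ratio, which was chosen after its values had been seen and was not tested.

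**Figure D3:**
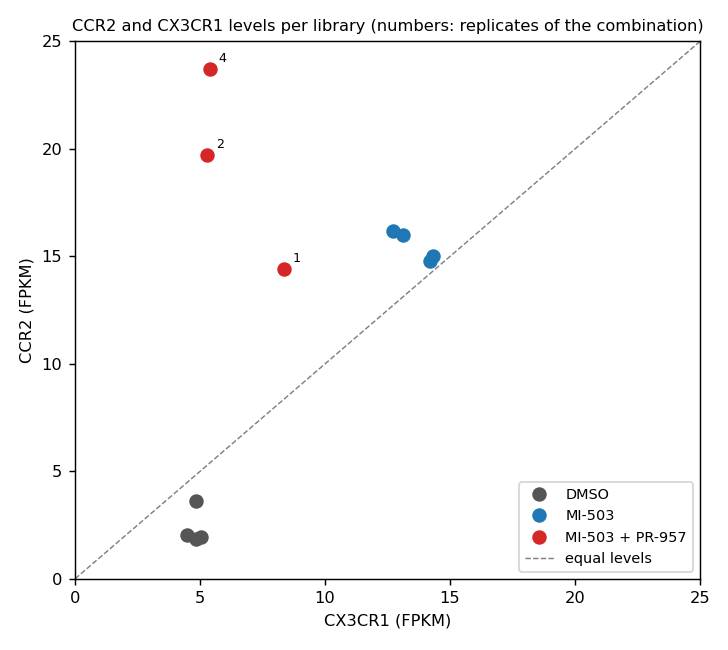
CCR2 against CX3CR1 (FPKM on both axes) in the 11 libraries, with the dashed line at equal levels and replicate numbers beside the combination points. The DMSO points lie below the line, the MI-503 points just above it, and the combination points far above it, with replicate 1 nearest to the MI-503 points.

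CCR1, a receptor for CCL3, CCL5 and CCL23 on monocytes and neutrophils (chr3:46201711-46208313, minus strand), resembled CX3CR1 on a smaller scale. It stood at 11.6, 13.1, 11.2 and 10.2 CPM in DMSO, at 22, 19.6, 21.1 and 17.9 CPM with MI-503, and at 17, 15.3 and 16.7 CPM in the combination. The groups did not overlap, and the combination libraries lay between the other groups. CCR1 rose 1.74-fold with MI-503 (interval 1.54 to 1.97, adjusted p = 5.93e-07) and was at 0.815 times its MI-503 level in the combination (interval 0.718 to 0.924, adjusted p = 0.00938). The second difference was called under all 19 alternatives, with adjusted p from 0.00277 to 0.0335. In the combination CCR1 remained 1.42-fold above DMSO (interval 1.24 to 1.62, adjusted p = 9.63e-05). Its log2 fold changes were 0.49 against DMSO and -0.35 against MI-503 without combination replicate 1.

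CXCR4, the receptor for CXCL12 that holds normal and leukemic stem cells in the bone marrow, was the most abundant member in every group (chr2:136114349-136118149, minus strand). The deposited annotation places 15.3% of its exon bases also in the exons of LOC112268426, and fragments there were not counted. CXCR4 stood at 50.8, 54.1, 50.2 and 48.8 CPM in DMSO, at 71.2, 68.5, 66.4 and 64.3 CPM with MI-503, and at 64.9, 79 and 89.3 CPM in the combination. Every treated library was above every DMSO library, while combination replicate 1 lay within the MI-503 range. CXCR4 rose 1.33-fold with MI-503 (interval 1.19 to 1.48, adjusted p = 0.000215) and 1.52-fold with the combination (interval 1.35 to 1.71, log2 0.60, adjusted p = 3.58e-06), with a log2 fold change of 0.74 without combination replicate 1. Between the combination and MI-503 the difference of 0.20 on the log2 scale (SE 0.08) only just passed the test (adjusted p = 0.0476). It was called in 5 of 19 alternatives, with log2 values from 0.04 without combination replicate 4 (adjusted p = 0.652) to 0.29 without combination replicate 1 (adjusted p = 0.000107).

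CXCR2, a receptor for CXCL8 and related neutrophil attractants (chr2:218125294-218137253, plus strand), was low and variable. It stood at 3.17, 2.3, 1.23 and 1.95 CPM in DMSO, at 2.78, 3.08, 2.6 and 2.91 CPM with MI-503, and at 2.81, 3.76 and 4.46 CPM in the combination. DMSO replicate 1 was higher than every MI-503 library, so the groups overlapped. With MI-503 the ratio was 1.29 (interval 0.935 to 1.77, adjusted p = 0.177), and without DMSO replicate 1 the gene was called (log2 0.64, adjusted p = 0.023, with 0.023 to 0.477 over the 19 alternatives). The rise of 1.63-fold with the combination against DMSO (interval 1.17 to 2.27, adjusted p = 0.0111) was lost without combination replicate 4 (log2 0.53, adjusted p = 0.063, with 6.16e-05 to 0.063 over the alternatives), and the log2 fold change was 0.91 without combination replicate 1. Against MI-503 the ratio was 1.27 (interval 0.924 to 1.74, adjusted p = 0.207), and the gene was called without combination replicate 1 (log2 0.51, adjusted p = 0.0434, with 0.0434 to 0.686 over the alternatives). Of 102 windows of 150 bases in CXCR2 exons, 8 recurred elsewhere in hg38 with 3 mismatches or fewer, and the windows of the other 8 members did not.

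C3AR1 binds C3a, the fragment released from complement C3 (chr12:8056844-8066359, minus strand). Its level was 0.675, 0.781, 0.759 and 0.902 CPM in DMSO, 0.787, 0.843, 1.24 and 0.901 CPM with MI-503, and 3.38, 4.11 and 3.83 CPM in the combination. DMSO and MI-503 overlapped, and all 3 combination libraries were above all 8 others. These levels rest on few fragments, between 16 and 30 per library without PR-957 and 143, 82 and 103 in the combination. With MI-503 alone the ratio to DMSO was 1.21 (interval 0.89 to 1.66, adjusted p = 0.288). C3AR1 was 3.97-fold higher in the combination than with MI-503 (interval 3.07 to 5.13, log2 1.99, SE 0.17, adjusted p = 1.18e-07), the rise of rank 82 among all tested genes, where 3.07% were called with a rise of at least 2-fold. Without combination replicate 1 the log2 fold change was 2.05. Against DMSO it rose 4.82-fold (interval 3.68 to 6.31, log2 2.27, adjusted p = 1.04e-08), and without combination replicate 1 by 2.37 on the log2 scale.

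C5AR1, the receptor for the complement fragment C5a (chr19:47309861-47322066, plus strand), had 32 counts in all. They were 1, 1, 2 and 2 in DMSO, 0, 6, 0 and 1 with MI-503, and 13, 4 and 2 in the combination. FPR1, the high-affinity receptor for formylated bacterial peptides (chr19:51745172-51751897, minus strand), had 1, 2, 0 and 1 counts in DMSO, 0, 3, 1 and 1 with MI-503, and 4, 3 and 7 in the combination. FPR2, its neighbor and a receptor for lipoxin and annexin peptides (chr19:51752026-51770531, plus strand), had 1, 0, 1 and 0 counts in DMSO, 0, 1, 1 and 1 with MI-503, and 0, 0 and 5 in the combination. All 3 genes were outside the filter, and in a fit with no filter none of them was called in any comparison. For the combination against DMSO that fit gave an adjusted p of 0.0703 for C5AR1, 0.088 for FPR1 and 0.475 for FPR2. At this depth differences in these genes were not detectable.

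The order of the members by level per kb of exon was compared within each group. In DMSO CXCR4 led with 20 FPKM, followed by CX3CR1 with 4.8, CCR1 with 4.36, CCR2 with 2.36, CXCR2 with 0.73 and C3AR1 with 0.223 FPKM. CX3CR1 and CCR1 overlapped between libraries there, and the other neighbors in this order did not. With MI-503 CCR2 passed CX3CR1 and CCR1, at 15.5 FPKM behind CXCR4 at 26.6 and ahead of CX3CR1 at 13.6, CCR1 at 7.61, CXCR2 at 0.959 and C3AR1 at 0.27 FPKM, with no overlap between neighbors. In the combination the order was CXCR4 at 30.5, CCR2 at 19.3, CX3CR1 at 6.34, CCR1 at 6.17, CXCR2 at 1.24 and C3AR1 at 1.08 FPKM, and CX3CR1 and CCR1 overlapped, as did CXCR2 and C3AR1. C5AR1, FPR1 and FPR2 were the last members in all groups, overlapped each other, and had mean levels of 0.0856 FPKM or less. Among all tested genes CCR2 moved from percentile 38.9 of FPKM in DMSO to 77.2 with MI-503 and 81.1 in the combination, and CX3CR1 from 51.5 to 74.4 and then 56.9. Summed over the 9 members, the level was 88.1 to 103 CPM in DMSO, 198 to 208 CPM with MI-503, and 177, 200 and 229 CPM in the combination, of which CXCR4, CCR2 and CX3CR1 made up 83 to 89% in every library.

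Most tested markers of monocytes and macrophages were higher than in DMSO in both treated groups, as the called members were. Against MI-503 the members split and most of the tested markers rose. Of 11 such genes 7 were tested. All 7 rose with MI-503 against DMSO, beside 22% of all tested genes, with a median log2 fold change of 1.93. MARCO, at 0.322 CPM or less in DMSO, passed the filter through treated libraries, so its rises against DMSO were favored by the filter. CSF1R, the receptor for M-CSF, rose by 2.43 on the log2 scale (adjusted p = 2.26e-12), and LYZ, the secreted lysozyme, by 1.98 (adjusted p = 1.04e-05). With the combination against DMSO 6 of the 7 were called higher (median 3.10), beside 31.7% of all tested genes. FCGR1A was not called there (log2 -0.19, adjusted p = 0.104). Against MI-503 6 of the 7 rose in the combination, beside 23.6% of all tested genes. FCGR1A fell by 0.53 against MI-503 (adjusted p = 0.000234). In fits without combination replicate 1, which the shares given here do not cover, these counts against MI-503 were the same. The summed level of the list was 213 to 243 CPM in DMSO and 606 to 623 CPM with MI-503. In the combination it was 894 CPM in replicate 1, 2230 CPM in replicate 2 and 2980 CPM in replicate 4, of which LYZ alone was 599, 1810 and 2510 CPM. Over the 3 combination libraries CCR2, CXCR4, CXCR2 and C3AR1 were lowest in replicate 1, where this sum was lowest. CX3CR1 and CCR1 were highest there. This covers all 6 tested members and rests on 1 library that stood apart over all genes. CD14, CD163 and MRC1 were among the markers outside the filter, and MRC1 had 1 count in all libraries together. CD14 averaged 0.251 CPM in DMSO, 0.184 CPM with MI-503 and 0.227 CPM in the combination. CD163 averaged 0.154, 0.188 and 0.783 CPM in the same order. Of 8 neutrophil markers 2 were tested (CSF3R and MMP9), and both rose with MI-503, while FCGR3B and MME had no count. MMP9, at 0.332 CPM or less in DMSO, also passed the filter through treated libraries. The part of these markers' cell state in the receptor results was not tested, and in bulk RNA more cells of a kind and more RNA per cell cannot be told apart.

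Among 26 other chemoattractant receptors, 10 were tested. With MI-503 6 of them rose, beside 22% of all tested genes, and 4 did not pass the test (median log2 fold change 0.71). With the combination against DMSO 6 rose and 1 fell (median 1.01), beside 31.7% higher and 32.8% lower of all tested genes. Against MI-503 2 rose and 2 fell (median -0.13), beside 23.6% and 23.8%. CMKLR1, CCR10, CCR3, CXCR6 and CCRL2 were too low in DMSO to pass the filter there, and passed through treated libraries. Their rises against DMSO were favored by the filter, so the counts against DMSO cannot be weighed against the shares over all genes. The shares above do not cover fits without combination replicate 1. There 4 rose and 1 fell against DMSO (median 0.78), and 2 rose and 3 fell against MI-503 (median -0.38). PTAFR, the receptor for platelet-activating factor, stood at 2.77, 5.1, 2.32 and 3.13 CPM in DMSO, at 30.3, 31, 31.2 and 33.2 CPM with MI-503, and at 17.6, 15.2 and 19.3 CPM in the combination. It rose by 3.25 on the log2 scale with MI-503 (SE 0.14, adjusted p = 2.98e-11) and was lower in the combination than with MI-503 (log2 -0.85, adjusted p = 2.83e-05), the order of groups also seen for CX3CR1 and CCR1. CMKLR1, the chemerin receptor, had 0 counts in all 4 DMSO libraries, 11, 18, 12 and 15 with MI-503, and 15, 8 and 8 in the combination. Set against a floor of 3 counts over the DMSO group, it was at least 16.7-fold higher with MI-503 and at least 10.9-fold higher with the combination, and the list medians were the same with this gene at its bound.

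GPR183, the receptor for oxysterols, was higher with each step. It stood at 6.89 to 9.14 CPM in DMSO, at 11 to 13.1 CPM with MI-503, and at 15.9, 30 and 28.2 CPM in the combination, where it was above MI-503 by 0.98 on the log2 scale (SE 0.16, adjusted p = 8.55e-05). C5AR2, the second receptor for C5a and a neighbor of C5AR1 on chromosome 19, also rose in both steps, by 0.74 with MI-503 (adjusted p = 0.00377) and by a further 0.74 in the combination (adjusted p = 0.00202). CXCR3, known from activated T cells, was at 1.38 to 1.66 CPM in DMSO and 0.301 to 0.708 CPM in the combination, and was lower there than with MI-503 (log2 -1.14, adjusted p = 0.00184), while MI-503 alone gave -0.36 (adjusted p = 0.169). CCR10 and CCR3 rose with MI-503, by 1.22 and 1.16, from levels under 0.5 CPM, and 48% of the exon bases of CCR10 are shared with CNTNAP1. CXCR6 (0.68, adjusted p = 0.177) and CCRL2 (0.58, adjusted p = 0.212) did not pass the test with MI-503. In the combination both were called higher than in DMSO, CXCR6 by 0.98 (adjusted p = 0.0456) and CCRL2 by 1.04 (adjusted p = 0.0208), and neither was called without combination replicate 1 (adjusted p = 0.207 and 0.0986). The untested 16 genes of this list had 59 counts or fewer over all libraries. LTB4R and LTB4R2, listed at 0, are annotated on 2 contigs, so fragments that fit both places were not counted.

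**Figure D4:**
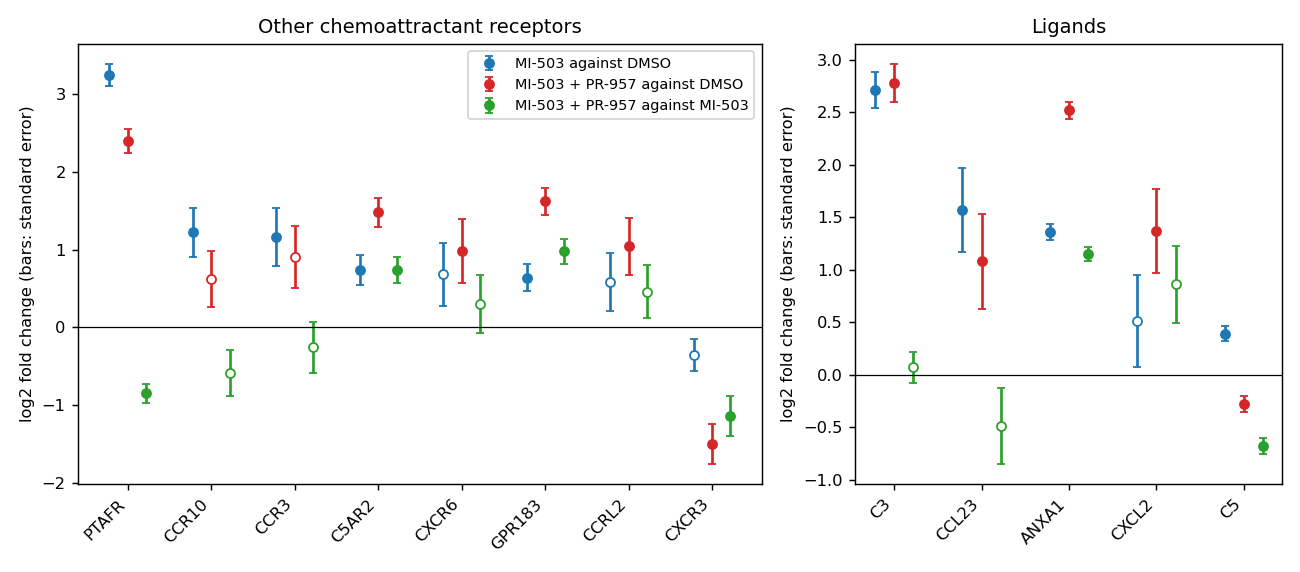
Fitted log2 fold change with its standard error for 8 other tested chemoattractant receptors and 5 tested ligands in the 3 comparisons, with filled points for an adjusted p under 0.05. CMKLR1 is not drawn because its DMSO libraries are at 0. PTAFR and C3 had the largest rises with MI-503 among the genes drawn in each panel, and ANXA1 rose again in the combination.

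Of 26 ligand genes of the members 5 were tested. With MI-503 4 of them rose (median log2 fold change 1.36), beside 22% of all tested genes, and CXCL2 did not pass the test (0.51, adjusted p = 0.346). With the combination against DMSO 4 rose and C5 fell by 0.28 on the log2 scale, beside 31.7% higher and 32.8% lower of all tested genes. Against MI-503 ANXA1 rose, C5 fell and the other 3 did not pass the test, beside 23.6% and 23.8%. CCL23 and CXCL2 were too low in DMSO to pass the filter there. CCL23 passed through the MI-503 libraries and CXCL2 through the combination libraries. The filter favored their rises in those groups, so the counts against DMSO cannot be weighed against the shares over all genes. In fits without combination replicate 1, which the shares above do not cover, 4 ligand genes were tested. Of these 3 rose and 1 fell against DMSO, and 1 rose and 1 fell against MI-503. C3, the source of the C3AR1 ligand C3a, stood at 3.51, 4.82, 3.42 and 1.99 CPM in DMSO, at 23.7, 23.9, 20.7 and 22.2 CPM with MI-503, and at 18.4, 29.2 and 24.5 CPM in the combination. Its rise with MI-503 was 2.71 on the log2 scale (SE 0.17, adjusted p = 2.08e-09), and the combination did not differ from MI-503 by the test (0.07, SE 0.15, adjusted p = 0.741). C3 rose with MI-503 against DMSO, where C3AR1 was not called, and C3AR1 rose in the combination against MI-503, where C3 was not called. In the combination against DMSO both were called higher. C3 rose there by 2.78 on the log2 scale (adjusted p = 6.88e-10) and C3AR1 by 2.27 (adjusted p = 1.04e-08). ANXA1, whose peptides act on formyl peptide receptors, stood at 11.4 to 13.1 CPM in DMSO, 28.7 to 34.5 CPM with MI-503 and 64 to 76 CPM in the combination. It rose by 1.36 with MI-503 (adjusted p = 4.08e-10) and by a further 1.15 in the combination (adjusted p = 1.3e-09). C5 was at 9.63 to 10.5 CPM in DMSO, rose to 12.5 to 13.8 CPM with MI-503 and was at 7.73 to 8.9 CPM in the combination (log2 -0.68 against MI-503, adjusted p = 3.53e-06). CCL23, a ligand of CCR1, rose by 1.57 with MI-503 (adjusted p = 0.00342) from counts of 3 to 6 in DMSO. Another 15 ligand genes, among them CXCL12 and CX3CL1, had 0 counts in all 11 libraries. For 6 of the 15 (MIF, CCL3, CCL4, CCL14, CCL15 and CCL16) the annotation gives several contigs or shared exons, whose fragments were not counted, so a count of 0 does not show that these are silent.

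Of 19 genes that carry the signal of these receptors into the cell 18 were tested. With MI-503 10 rose and 4 fell (median log2 fold change 0.25), beside 22% higher and 29.3% lower of all tested genes. With the combination 7 rose and 7 fell against DMSO (median 0.03), beside 31.7% and 32.8%. Against MI-503 3 rose and 7 fell (median -0.08), beside 23.6% and 23.8%. The shares above do not cover fits without combination replicate 1. There these counts were 8 and 6 against DMSO (median -0.02), and 2 and 9 against MI-503 (median -0.13). PREX1, an exchange factor for Rac driven by G protein beta-gamma subunits, rose by 1.11 with MI-503 (SE 0.05, adjusted p = 2.72e-11) and by 1.04 with the combination. PIK3R5, the adaptor of phosphoinositide 3-kinase gamma, rose by 0.80 with MI-503 (adjusted p = 7.76e-07) and by 1.23 with the combination against DMSO (adjusted p = 2.66e-09). PLCB2, a phospholipase C beta, rose by 0.61 with MI-503 (adjusted p = 4.91e-07). RAC2, the Rac protein of blood cells, was lower in the combination than with MI-503 (log2 -0.56, adjusted p = 6.28e-07), as were GNA15 (log2 -0.59, adjusted p = 4.29e-06), a G protein alpha subunit of blood cells, and PIK3CG (log2 -0.37, adjusted p = 3.72e-05), the catalytic subunit that PIK3R5 binds.

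Of 15 genes that end receptor signaling all were tested. With MI-503 5 rose and 3 fell (median 0.02), beside 22% higher and 29.3% lower of all tested genes. With the combination against DMSO 6 rose and 7 fell (median -0.02), beside 31.7% and 32.8%. Against MI-503 2 rose and 8 fell (median -0.15), beside 23.6% and 23.8%. The shares above do not cover fits without combination replicate 1. There these counts were 6 and 6 against DMSO (median 0.02), and 2 and 9 against MI-503 (median -0.21). RGS16, which speeds the shut-off of Gi proteins, fell by 1.31 on the log2 scale with MI-503 (adjusted p = 7.08e-09) and by 1.85 with the combination against DMSO (adjusted p = 1.56e-10). RGS18, of the same family, rose by 1.27 with MI-503 (adjusted p = 2.37e-06) and by 1.65 with the combination against DMSO (adjusted p = 5.59e-08). GRK6, a kinase of activated receptors, rose by 0.54 with MI-503 (adjusted p = 7.79e-08), and ARRB2, a beta-arrestin, by 0.41 (adjusted p = 3.95e-07). ARRB1, the other beta-arrestin, was lower in the combination than with MI-503 (log2 -0.55, adjusted p = 4.09e-07), as was RGS19 (log2 -0.38, adjusted p = 0.000126), while ITCH, the ubiquitin ligase that sorts CXCR4 for degradation, was higher (log2 0.25, adjusted p = 0.000445).

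The named genes within 100 kb of CCR2 and C3AR1 had smaller fitted changes than these members. Near CCR2, CCR3 had a log2 fold change of 1.16 with MI-503 (adjusted p = 0.0134) and CCRL2 one of 0.58 (adjusted p = 0.212), beside 2.73 for CCR2. C3AR1 has 3 tested neighbors, and in the combination against MI-503 FOXJ2 had 0.18 (adjusted p = 0.0329), NECAP1 0.25 (adjusted p = 0.0166) and CLEC4A 0.59 (adjusted p = 0.14) beside 1.99 for C3AR1. None of the genes near CX3CR1 or CXCR4 was tested. The differences between a member and its neighbors were not tested.

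For each tested member the most similar genes were sought by Pearson's r of log2 CPM over the 11 libraries, among 12462 genes that averaged 1 CPM or more. The libraries fall into 3 treatment groups and are not independent points, so r is given as a description. CCR2 was followed most closely by DENND1C and SAMHD1 (r = 0.996 for both), CX3CR1 by SLITRK4 (0.988) and SV2A (0.982), and CCR1 by ZBTB16 (0.983) and HLA-DQB1 (0.982). CXCR4 was followed by PLAC8 (0.989) and DNAJC5B (0.984), C3AR1 by CC2D1B (0.992) and ZNF746 (0.984), and CXCR2 by TTN-AS1 (0.956) and SHLD2P3 (0.929). No gene appeared in the pairs of more than 1 member.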

How the data were processed

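Polyadenylated RNA of 11 MOLM-13 libraries was sequenced as read pairs with a TruSeq RNA kit. The authors deposited unnormalized counts, made per the file headers by featureCounts 2.0.1 over RefSeq exons of hg38, ignoring strand. Fragments mapping to several places or to several genes were left out, and the filter used on the alignments beforehand is not stated. Their processing notes name Trimmomatic 0.39 and STAR 2.7.10a. Because strand was ignored, a gene and an antisense partner cannot be told apart. The joined table differed from the single libraries in 0 cells. The authors' tables of differential expression hold log2 fold changes and p-values of their own comparisons and were not used.

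Tests used edgeR 4.0.16 under R 4.3.3, with DESeq2 1.42.0 and limma 3.58.1 as alternatives, and other steps used Python 3.11.15. Of 38557 genes, 11740 had no count and 14683 passed filterByExpr (minimum count 10). All 11 libraries entered 1 quasi-likelihood fit with TMM factors of 0.956 to 1.056, and tests were two-sided with Benjamini-Hochberg adjustment. The common dispersion was 0.00378 (a coefficient of variation of 6.14% between libraries beyond counting error), and the residual degrees of freedom were 8. Totals differed up to 2.18 times between libraries, and counting error weighs most on genes with few counts. Log2 CPM used a prior count of 0.5. Alternatives were RLE and upper-quartile scaling, no filter, a minimum count of 50, DESeq2, limma-voom, only the groups compared, a replicate block, a threshold of 0.01, and each library left out.

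Members and lists were chosen with earlier results of these data known. All members were named, as were tested genes of the other-receptor and ligand lists (1 of them is not reported here), the 3 genes of smallest adjusted p per comparison in the transduction and desensitisation lists, and the 2 genes most like each member. Marker genes and neighbors of members were named in addition. Promoters are from RefSeq, and exon windows were searched in hg38 with minimap2 2.31.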

Additional observations from a re-analysis of the deposited data

Results flagged for a closer look

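CCR2 in DMSO replicate 2 stood far from the other 3 DMSO libraries. Its level was 14.5 CPM where the others were at 7.29 to 8.21 CPM, and the gap to the nearest of them was 0.873 of the whole range, above Dixon's 95% critical value for 4 samples. It was the single case among 18 groups of 4 values of this kind, and chance alone gives about 1 in 20. Without this library the log2 fold change of CCR2 with MI-503 was 3.01 (edgeR adjusted p = 3.38e-10) in place of 2.73. PTAFR was also highest in this library among the DMSO libraries, at 5.1 CPM beside 2.32 to 3.13 CPM.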

How the results depend on the processing

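No fold change of a tested member changed direction under any alternative. The members called higher with MI-503 (4) and with the combination (6) against DMSO stayed within 1.5 times of these counts throughout. The count of members called higher in the combination than with MI-503 was 2, and it was 1 with RLE scaling, DESeq2, limma-voom, only the groups compared, or an adjusted p under 0.01. Leaving out 1 library gave 1 to 4, with 4 reached without combination replicate 1. CXCR4 accounts for the loss: its adjusted p was 0.0742 with RLE scaling, 0.0743 with DESeq2, 0.0772 with limma-voom and 0.0884 with only the groups compared. CCR2 was called in this comparison with no filter (adjusted p = 2.29e-06) and without DMSO replicate 2 (0.0324); the cause was not tested. No clear pairing by replicate number was seen, though with so few libraries per group these values cannot exclude it. Of 10 same-number pairs 1 had a correlation of deviations over 0.1 (range -0.102 to 0.144, against -0.132 to 0.116 for other numbers). The best match carried its own number in 7 of 20 comparisons. With a replicate block CXCR4 had a log2 fold change of 0.19 in the combination against MI-503 (adjusted p = 0.0762), and the count of members called higher was 1. Of the fold changes recomputed, 338 kept their side of the threshold, 17 lost it and 5 gained it. Without length correction CXCR2 and C3AR1 exchanged ranks 5 and 6 in the combination, and FPR1 and C5AR1 ranks 7 and 8. Upper-quartile scaling moved the median log2 fold change of all genes by 0.06, 0.07 and 0.01 in the 3 comparisons. It turned the balance of all calls with MI-503 from 3235 higher and 4307 lower (42.9% higher) to 3968 and 3356 (54.2% higher), which was also turned with only the groups compared (4079 and 3977) and without combination replicate 1 (4141 and 3990). Depth limits C5AR1, FPR1 and FPR2, whose libraries hold 13 counts or fewer.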
